A study of Mus musculus with 8 samples.

Results

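The high-affinity IgE receptor FcεRI and the kinases and adaptors next to it were followed as 10 genes, chosen by name: the receptor chains Fcer1a, Ms4a2 and Fcer1g, the kinases Lyn, Fyn, Syk and Btk, and the adaptors Lat, Lat2 and Gab2. All 10 were found among the 55359 genes of the count table and all 10 were among the 14529 genes tested. The RNA came from peritoneal mast cells (PMCs) of C57BL/6x129/Sv mice, wild-type and untreated. The lines PMC-303 and PMC-306, which had transformed on their own in ageing, neglected cultures, had 1 library each. Primary WT PMCs had 6 libraries, 3 from female and 3 from male mice. Medium for the lines held less foetal calf serum and less stem cell factor than medium for the primary cells, so in these libraries medium and transformation cannot be told apart. The study reports that PMC-306 grown in the primary cell medium kept its surface FcεRI, while surface KIT fell. No RNA of the 10 genes was reported for that comparison. In other experiments of the study PMC-306 stained positive for surface FcεRI. Its degranulation and cytokine release were reported to follow antigen dose much as in primary PMCs.

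FcεRI holds IgE on the mast cell surface. Its α chain, encoded by Fcer1a, binds the antibody, while the β chain, encoded by Ms4a2, and the γ chain, encoded by Fcer1g, carry the motifs that are phosphorylated when antigen crosslinks the receptor. Lyn phosphorylates these motifs, Syk docks on the γ chain, and Syk and its substrates then build complexes on LAT, on its relative LAT2 (also called NTAL or LAB) and, through Fyn, on GAB2, which lead to calcium release and degranulation.

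In the lines, transcripts for the ligand-binding α chain, for Syk and for the adaptors Lat2 and Gab2 were lower than in primary WT PMCs. Fcer1a was 2.57-fold lower, Syk 1.55-fold, Gab2 1.37-fold and Lat2 1.32-fold. Of 18 alternative analyses, the call held in 18 for Syk, 17 for Fcer1a, 13 for Gab2 and 10 for Lat2. That of Gab2 was lost without either line and that of Lat2 without PMC-303. The γ chain gene Fcer1g lay above the primary range in both lines without passing the test. Lyn and Btk lay within the primary range in both lines. Ms4a2, Fyn and Lat were below the primary range in PMC-306 and within it in PMC-303. All 4 calls were falls, against 33.9% of all genes tested that were called in either direction, 15.5% lower and 18.3% higher. Of all genes, 2665 were higher and 2255 lower; with library totals unadjusted these were 3406 and 1665, and with TPM 2374 and 981. The median log2 difference of the 10 genes was -0.43, beside -0.01 for all genes tested.

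Levels are given as CPM, counts scaled to the size of their library after adjustment with TMM factors, or as TPM, which also divides by transcript length and is used to compare genes with each other. Totals ran from 15918758 to 24180226 counts a library, so that 3 counts correspond to at most 0.187 CPM and counting error is small beside the levels below. Calls come from limma on log2(CPM + 0.1) with the Benjamini-Hochberg adjusted p over all genes tested, threshold 0.05. The 10 mast cell markers listed, among them Kit and Cpa3, exceeded the level of 3 counts in all 8 libraries, except Mcpt4 in PMC-306. There Mcpt4 was at 0.0492 CPM, where 3 counts correspond to 0.147 CPM. Of the 10, 5 (Kit, Tpsb2, Mcpt4, Il1rl1 and Anpep) were called lower in the lines. Summed macrophage markers reached 449 CPM in PMC-306, against 7.16 CPM in PMC-303 and at 7.80 to 69.7 CPM in the primary libraries. Of that sum 426 CPM was Adgre1. In PMC-306 Itgam, at 4.66 CPM, and Cd163, at 3.09 CPM, also lay above the primary libraries, which held at most 0.659 and 1.12 CPM. Cd68, at 13.9 CPM, lay within the primary range and Lyz2, at 1.13 CPM, below it. C1qa, C1qb and Mrc1 were at 0 and Csf1r was at 0.0982 CPM in PMC-306, but none of these exceeded 0.230 CPM in a primary library. Summed B cell markers were at 25.2 CPM in PMC-303, 6.73 CPM in PMC-306 and 0.997 to 14.4 CPM in the primary libraries. In PMC-303 Ighm was at 21.4 CPM and Blnk at 3.75 CPM, and the other 6 of these 8 markers were at 0. Of 10 macrophage, 8 B cell, 8 T and NK cell, 7 basophil and eosinophil and 8 fibroblast and mesothelial markers, 11 had enough counts to be tested and 0 were called. That fit takes both lines as replicates, so it can miss a rise in 1 line. The library of PMC-303 held 4.20 CPM of 4 Y-linked genes together with 900.2 CPM of Xist. PMC-306 held 332 CPM of the Y-linked genes and 0.147 CPM of Xist. Female primary libraries held at most 0.0878 CPM of the Y-linked genes and 1468 to 2055 CPM of Xist. Male ones held at least 322 CPM of the Y-linked genes and at most 0.869 CPM of Xist. The part of these markers in the results was not tested, and results without either line are given where they differ. In RNA from whole cultures, fewer cells of a type and less RNA per cell cannot be told apart.

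In primary WT PMCs the 10 genes together took between 0.795% and 0.945% of the counts of a library, in PMC-303 0.643% and in PMC-306 0.459%. Fcer1a alone took between 0.386% and 0.516% in the primary libraries, 0.260% in PMC-303 and 0.142% in PMC-306. By TPM, Fcer1a stood at place 16 among the 12210 genes with at least 1 TPM in primary cultures, with 5583 ± 730 TPM (SD, n = 6), and at place 20 in PMC-303 and 48 in PMC-306. Next in TPM came Ms4a2 with 1191 ± 186 and Lat2 with 724 ± 92.7, then Fcer1g with 336 ± 67.1 and Lat with 244 ± 47.8. Btk followed with 109 ± 14.1, Lyn with 90.1 ± 9.02, Syk with 43.8 ± 5.12, Gab2 with 27.8 ± 4.77 and Fyn with 27.2 ± 4.37. In the last pair Gab2 exceeded Fyn in 5 of 6 primary libraries, so these neighbours did not differ beyond their spread. The ranges of Fcer1g and Lat, of Btk and Lyn and of Syk and Gab2 also overlapped, although the order held within each of the 6 primary libraries. The same order held in PMC-306, and in PMC-303 except that Fyn, at 30.2 TPM, exceeded both Syk, at 28.9 TPM, and Gab2, at 22.3 TPM.

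**Figure D1:**
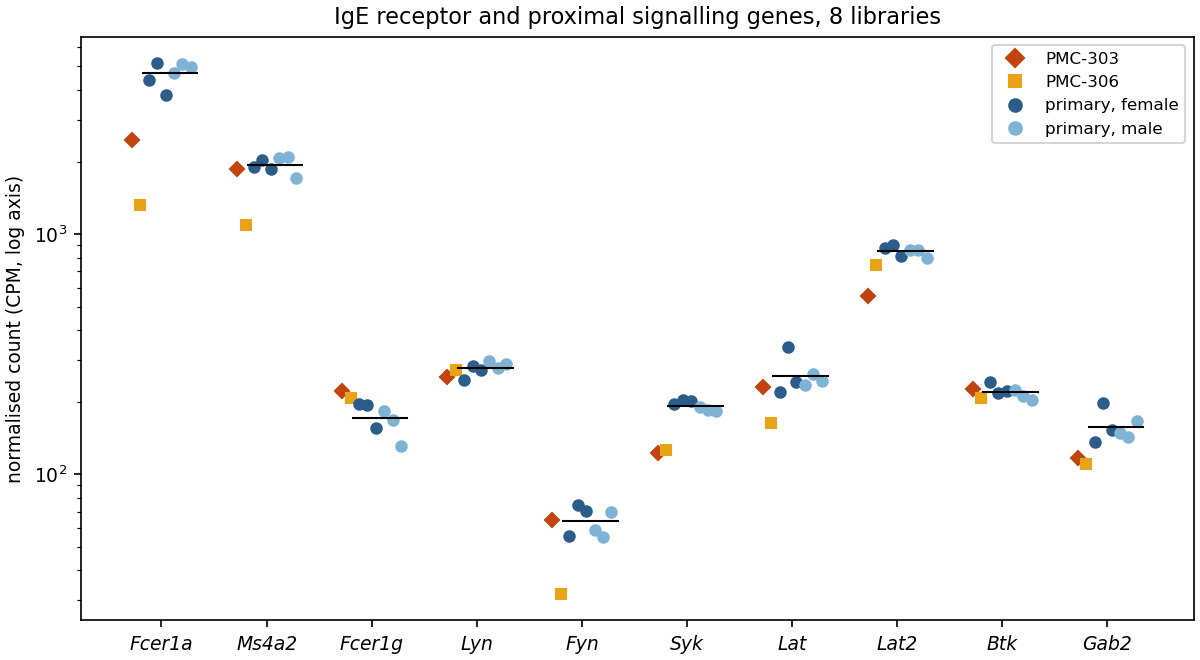
Normalised counts (CPM, log axis) of the 10 genes in each of the 8 libraries; the black line is the mean of the 6 primary libraries. Fcer1a, Syk, Lat2 and Gab2 of both lines lie under all primary libraries, Fcer1g of both lines lies over them, and Lyn and Btk lie among them.

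Fcer1a encodes the α chain, which binds the Fc part of IgE. The gene lies on the minus strand at chr1:173048851-173054781 (GRCm39). Its level was 2480 CPM in PMC-303 and at 1323 CPM in PMC-306. In the female primary cultures it was 4372, 5153 and 3789 CPM and in the male ones 4695, 5106 and 4982 CPM. Both lines lay below the lowest primary culture, PMC-303 at 53.0% and PMC-306 at 28.3% of the primary mean of 4683 ± 526 CPM (SD, n = 6). The log2 difference of both lines was -1.36 (SE 0.24, limma adjusted p = 0.00310). It was -0.91 without PMC-306 and -1.81 without PMC-303, and was called in 17 of 18 alternative analyses. The exception was the comparison with the 3 female cultures alone, where the adjusted p was 0.0569.

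Ms4a2 encodes the β chain, which amplifies the signal of the receptor, and lies on the minus strand at chr19:11592887-11601083. Its level was 1865 CPM in PMC-303 and at 1095 CPM in PMC-306. Female primary cultures held 1911, 2040 and 1877 CPM and male ones 2078, 2089 and 1717 CPM. PMC-303 lay within the primary range and PMC-306 lay below it, at 56.1% of the primary mean. For both lines together the log2 difference was -0.45 (95% interval -0.88 to -0.02, limma adjusted p = 0.10) and did not pass the test. PMC-306 alone against the primary cultures gave -0.82 (adjusted p = 0.00760), where the lone library is assumed to vary like the primary ones, and PMC-303 alone gave -0.06 (adjusted p = 0.795). The difference between the lines was 1.70-fold, from 1 library each and so untested.

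Fcer1g encodes the γ chain, which several other Fc receptors also use, on the minus strand at chr1:171057141-171062219. The long non-coding RNA gene Gm71631 spans all 5079 bases of Fcer1g, introns included, on the same strand, and no counts were given for it. Of these bases 959 are in the main transcript Fcer1g-201, and overlap between exons was not examined. Strand does not separate them, and the part of Gm71631 in the Fcer1g counts was not tested. Its level was 224 CPM in PMC-303 and at 207 CPM in PMC-306. The primary cultures ranged from 131 CPM (male culture 3) to 196 CPM (female culture 1), with a median of 176 CPM. Both lines lay above the range, by 1.30-fold and 1.21-fold over the primary mean. The log2 difference of 0.34 (95% interval 0.00 to 0.68, limma adjusted p = 0.112) did not pass the test. It passed in 1 of 18 alternative analyses, with library totals unadjusted by TMM (log2 0.45, adjusted p = 0.0426), a scaling that moved the median of all genes tested from -0.01 to 0.10.

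Ratios of TPM within a library, which do not depend on library size, were used to compare the receptor chains with each other. Fcer1a exceeded Fcer1g 6.88-fold in PMC-303 and 3.93-fold in PMC-306. In the primary cultures this ratio was 13.7, 16.3 and 14.9 in females and 15.6, 18.8 and 23.4 in males. The groups did not overlap, and the mean ratio was 3.24-fold lower in the lines. The ratio of Ms4a2 to Fcer1g was 2.61 in PMC-303 and 1.62 in PMC-306, below the primary range of 3.04 to 4.09, and was 1.74-fold lower in the lines. For each of these ratios the two-sided exact permutation test over 28 arrangements gave p = 0.0357, the smallest it can give, and 0.0714 after adjustment over 4 ratios. The ratio of Lyn to Fyn (exact permutation p = 0.321) was 2.86 in PMC-303, within the primary range of 2.81 to 4.09, and 6.45 in PMC-306, above it. The ratio of Lat2 to Lat (exact permutation p = 0.821) was 2.03 in PMC-303, below the primary range of 2.41 to 3.57, and 3.95 in PMC-306, above it.

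**Figure D2:**
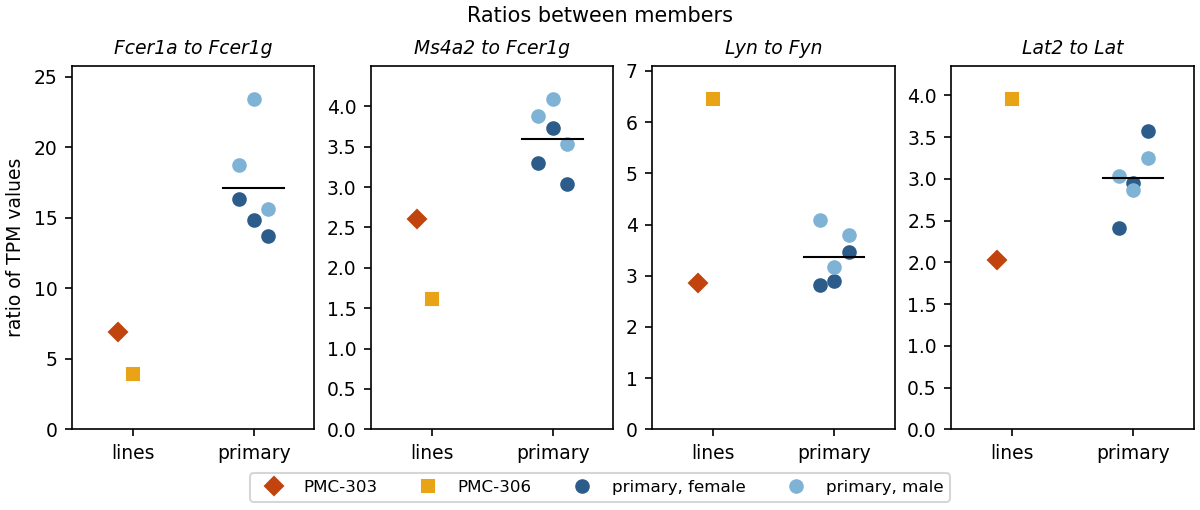
Ratios of TPM values between pairs of the genes in each library, on linear axes that start at 0; the black line is the mean of the 6 primary cultures. For Fcer1a to Fcer1g the lines lie at 6.88 and 3.93 and the primary cultures between 13.7 and 23.4, whereas for Lat2 to Lat the lines lie on opposite sides of the primary cultures.

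Since the α and β chain genes are restricted to few cell types and GATA factors are known regulators of mast cell genes, the 150 bases before the start sites of the 3 receptor chain genes are shown, read from GRCm39 at the start of the canonical transcript in GENCODE M39. Capitals mark the letters GATAA or their reverse complement TTATC.

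Fcer1a: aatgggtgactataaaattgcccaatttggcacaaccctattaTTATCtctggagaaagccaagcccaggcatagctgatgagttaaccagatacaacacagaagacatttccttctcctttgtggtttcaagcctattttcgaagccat

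Ms4a2: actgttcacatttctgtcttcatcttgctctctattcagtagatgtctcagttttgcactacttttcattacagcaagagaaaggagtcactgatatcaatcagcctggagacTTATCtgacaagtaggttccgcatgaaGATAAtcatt

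Fcer1g: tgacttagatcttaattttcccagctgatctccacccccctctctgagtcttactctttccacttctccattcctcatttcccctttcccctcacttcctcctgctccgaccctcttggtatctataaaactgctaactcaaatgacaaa

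These windows are chr1:173054782-173054931, chr19:11601084-11601233 and chr1:171062220-171062369, each on the minus strand. The Fcer1a window holds 1 match, which begins 107 bases before the start site, and the Ms4a2 window holds 2, which begin 37 and 10 bases before it. Of the other 8 genes none held a match in such a window, and of 14078 tested genes with a canonical start 10.3% did. For Syk and Fyn the canonical start is not that of the leading transcripts Syk-201 and Fyn-205, whose windows were not searched. For GATA factors, only GATAA and its reverse complement were searched. The E-box letters CACGTG, which read the same on both strands, were found in the window of Lat alone among the 10 genes and in 5.28% of all. The GATA factor gene Gata2 was at 582 CPM in PMC-303 and at 662 CPM in PMC-306, with 495 to 600 CPM in the primary cultures, and was not called. Levels of other GATA factor genes are not given here.

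Lyn, the Src family kinase that phosphorylates the β and γ chains, lies on the plus strand at chr4:3678061-3813122. Its level was 254 CPM in PMC-303 and at 273 CPM in PMC-306. The primary cultures lay between 248 CPM (female culture 1) and 297 CPM (male culture 1), median 280 CPM, so that the lines overlapped with them. The log2 difference was -0.07 (95% interval -0.26 to 0.11, limma adjusted p = 0.515) and was positive under unadjusted library totals (0.04) and with TPM (0.04). The ribosomal protein gene Rps20 overlaps Lyn over 20959 bases of the gene spans, introns included, on the opposite strand and was at 308 to 459 CPM. The library kit marks strand, but whether the counting used it is not given in the sources used here.

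Fyn, another Src family kinase of mast cells that acts through GAB2, lies on the plus strand at chr10:39244851-39442227. It was at 64.9 CPM in PMC-303 and at 31.9 CPM in PMC-306. Female cultures held 55.2, 74.3 and 70.4 CPM and male ones 58.7, 54.8 and 69.6 CPM. PMC-303 lay in the middle of this range, and PMC-306, at 49.9% of the primary mean, below it. The log2 difference of both lines, -0.48 (95% interval -1.03 to 0.08), was not called (limma adjusted p = 0.165). It rested on PMC-306: without this line it was 0.03 and without PMC-303 it was -0.98.

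Syk, the kinase that docks on the phosphorylated γ chain, lies on the plus strand at chr13:52736696-52802828. It was at 123 CPM in PMC-303 and at 127 CPM in PMC-306. Female cultures held 197, 203 and 202 CPM and male ones 190, 185 and 183 CPM. The lines were close to each other and both lay below all primary cultures, which had the narrowest relative spread of the 10 genes (coefficient of variation 4.43%). The log2 difference was -0.63 (SE 0.07, limma adjusted p = 0.000266), and it was called in 18 of 18 alternative analyses, with values from -0.69 to -0.52.

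Btk, a Tec family kinase that activates phospholipase C gamma, lies on the minus strand at chrX:133443084-133484319. It was at 226 CPM in PMC-303 and at 209 CPM in PMC-306, with 204 to 244 CPM in the primary cultures. The lines lay inside this range. The log2 difference was -0.02 (95% interval -0.20 to 0.16, limma adjusted p = 0.879), and its sign was positive under unadjusted library totals (0.09), with TPM (0.06) and against the male cultures alone (0.03).

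Lat encodes the transmembrane scaffold on which phospholipase C gamma is assembled, at chr7:125962996-125968810 on the minus strand. It was at 232 CPM in PMC-303 and at 164 CPM in PMC-306. Female cultures held 221, 338 and 243 CPM and male ones 235, 262 and 246 CPM. PMC-306 lay below this range and PMC-303 within it. The log2 difference was -0.39 (95% interval -0.78 to 0.01, limma adjusted p = 0.123), not called. It was -0.63 (adjusted p = 0.0545) without PMC-303 and -0.14 (adjusted p = 0.653) without PMC-306, and was called in 0 of 18 alternative analyses.

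Lat2, the related scaffold that lacks the binding site for phospholipase C gamma, lies on the minus strand at chr5:134628120-134643882. It was at 551 CPM in PMC-303 and at 745 CPM in PMC-306, and the primary cultures ranged from 793 CPM (male culture 3) to 903 CPM (female culture 2), median 859 CPM. Both lines lay below this range, PMC-303 at 64.9% and PMC-306 at 87.7% of the primary mean. The log2 difference was -0.40 (SE 0.12, limma adjusted p = 0.0283). The call depended on PMC-303, without which the difference was -0.18 (adjusted p = 0.283), and was also lost without female culture 1 (0.0609), male culture 1 (0.0513) or male culture 2 (0.0585). Other losses came with library totals unadjusted (log2 -0.30, limma adjusted p = 0.0921), with TPM (-0.32, 0.263) and against the female (0.146) or male (0.141) cultures alone. The call was kept in 10 of 18 alternative analyses, and the sign was negative in all 18. On the opposite strand Rfc2 overlaps Lat2 over 2542 bases of the gene spans, introns included, and was at 182 to 250.04 CPM, with the same limit on strand as for Lyn.

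Gab2, the adaptor that brings in phosphoinositide 3-kinase, lies on the plus strand at chr7:96730793-96958153. It was at 118 CPM in PMC-303 and at 111 CPM in PMC-306. Female cultures held 137, 199 and 154 CPM and male ones 148, 143 and 167 CPM, so that both lines were lower than each primary culture. The log2 difference was -0.46 (SE 0.13, limma adjusted p = 0.0290). The call was kept in 13 of 18 alternative analyses. It was lost with either line left out (adjusted p = 0.0853 without PMC-303 and 0.140 without PMC-306), without male culture 3 (0.0524), against the female cultures alone (0.111) and with TPM, where the difference was -0.30 (0.233).

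**Figure D3:**
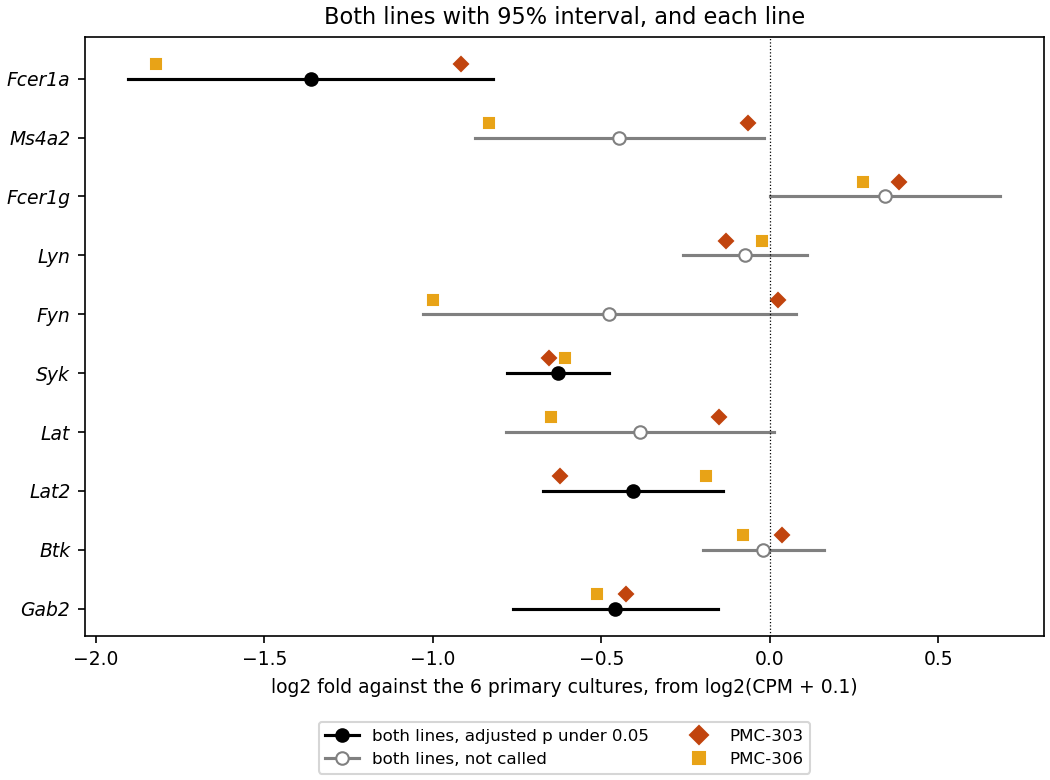
Log2 fold against the 6 primary cultures for both lines (circle with 95% interval, filled where the adjusted p was under 0.05) and for each line alone (diamond and square, without a test). Fcer1a, Syk, Lat2 and Gab2 are the filled circles, and the 2 lines stand farthest apart for Fyn, Fcer1a and Ms4a2.

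Counted against the range of the primary cultures, PMC-303 was below it for 4 of the 10 genes (Fcer1a, Syk, Lat2, Gab2) and above it for 1 (Fcer1g). PMC-306 was below it for 7 (these 4 and Ms4a2, Fyn, Lat) and above it for 1 (Fcer1g). Of 12590 genes that averaged 1 CPM or more, 30.7% lay below and 35.3% above the primary range in PMC-303, and 33.5% below and 33.3% above in PMC-306. Relative to PMC-306, PMC-303 held 2.04-fold more Fyn, 1.87-fold more Fcer1a, 1.70-fold more Ms4a2 and 1.41-fold more Lat, and PMC-306 held 1.35-fold more Lat2. For Lyn, Syk, Btk, Fcer1g and Gab2 the 2 lines differed by at most 1.08-fold.

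Female and male primary cultures were compared for the same 10 genes. None was called, where 0.0438% of 13710 genes were called. The log2 differences, female minus male, lay between -0.16 (Fcer1a) and 0.18 (Fcer1g), and the lowest p of the 10, without adjustment, was 0.105 (Syk, limma adjusted p = 1.00). The 95% interval was -0.59 to 0.27 for Fcer1a and -0.03 to 0.25 for Syk.

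Several of the genes make more than 1 transcript, and the deposited transcript counts allow the share of each to be followed. Transcripts share most of their exons, so these shares are estimates by the authors' quantification. For 5 genes at least 2 transcripts held 10% or more of the counts. The share of the leading transcript differed between lines and primary cultures by at most 1.91 percentage points (Syk-201), and none of the 5 differences passed the two-sided exact permutation test (lowest p = 0.25, adjusted p = 0.893 for each). Sequences of the coding stretches that tell the forms apart are given for Fyn and Ms4a2, in lower case throughout and 5′ to 3′ on the strand of the gene.

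Lyn-201 has 512 codons and Lyn-202 has 491, the long and short forms known as LynA and LynB. Lyn-201 made up 72.3% of Lyn counts in PMC-303 and 65.1% in PMC-306. It made up 69.2%, 66.4% and 69.6% in the female and 71.3%, 65.4% and 71.2% in the male cultures. The longer form led in all 8 libraries, and the 2 lines lay just outside the primary range on opposite sides. The mean difference was -0.16 percentage points (exact permutation p = 0.893).

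Fyn has alternative exons at the same place in the message, 156 bases at chr10:39405915-39406070 in the form known from blood cells (FynT, here Fyn-201 and Fyn-205 with 534 codons) and 165 bases at chr10:39405433-39405597 in the form first known from brain (FynB, Fyn-202 with 537 codons).

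Fyn-201 exon: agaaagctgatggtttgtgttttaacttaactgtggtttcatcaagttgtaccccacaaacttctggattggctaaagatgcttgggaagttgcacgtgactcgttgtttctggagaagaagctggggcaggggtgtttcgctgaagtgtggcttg

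Fyn-202 exon: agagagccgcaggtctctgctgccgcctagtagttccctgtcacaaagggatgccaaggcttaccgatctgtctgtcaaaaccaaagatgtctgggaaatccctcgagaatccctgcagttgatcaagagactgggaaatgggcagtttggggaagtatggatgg

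Transcripts with the 156-base exon made up 84.9% of Fyn counts in PMC-303, 93.7% in PMC-306 and 83.6% to 91.1% in the primary cultures. Those with the 165-base exon made up 6.78%, 2.67% and 4.24% to 9.79%, the lowest of these shares resting on 17.3 counts in PMC-306. The haematopoietic exon was thus the main one in all 8 libraries. The leading transcript Fyn-205 held 43.9% in PMC-303 and 53.4% in PMC-306, against 42.9% to 50.0% in the primary cultures (exact permutation p = 0.5).

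Ms4a2-202 encodes the full-length β chain with 235 codons. The shorter Ms4a2-204, with 125 codons, was assigned most of the Ms4a2 counts. It lacks 120 bases of 1 exon at chr19:11599407-11599526, 111 bases of another at chr19:11596263-11596373 and the whole exon of 99 bases at chr19:11595780-11595878, each a multiple of 3 bases.

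Ms4a2-202 stretch of 120 bases: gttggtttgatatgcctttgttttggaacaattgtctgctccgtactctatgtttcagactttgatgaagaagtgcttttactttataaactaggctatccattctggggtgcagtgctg

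Ms4a2-202 stretch of 111 bases: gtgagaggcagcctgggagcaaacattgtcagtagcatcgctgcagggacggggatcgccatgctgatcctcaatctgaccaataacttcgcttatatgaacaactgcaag

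Ms4a2-202 exon of 99 bases: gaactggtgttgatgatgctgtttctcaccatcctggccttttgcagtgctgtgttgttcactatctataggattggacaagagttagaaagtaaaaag

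Ms4a2-204 held 82.1% of Ms4a2 counts in PMC-303 and 80.8% in PMC-306, and between 80.7% and 81.3% in the primary cultures. Ms4a2-202 held 14.5%, 15.4% and 14.6% to 15.6%. The 2 forms share most of their length (2426 bases in Ms4a2-204 and 2756 in Ms4a2-202), so the split rests on reads that touch these stretches. The difference in the share of Ms4a2-204 was 0.43 percentage points (exact permutation p = 0.25).

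Syk-201 and Syk-203 encode the same 629 codons from different start sites. Syk-201 held 82.0% of Syk counts in PMC-303, 75.6% in PMC-306 and 68.6% to 83.0% in the primary cultures. For Lat2, the form with 191 codons, Lat2-202, held 37.3% in PMC-303, 42.3% in PMC-306 and 35.8% to 41.8% in the primary cultures. The 203-codon forms Lat2-201 and Lat2-205 made up most of the remainder. For both genes the lines and the primary cultures overlapped or adjoined, with exact permutation p = 0.714 for Syk-201 and p = 0.536 for Lat2-202.

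**Figure D4:**
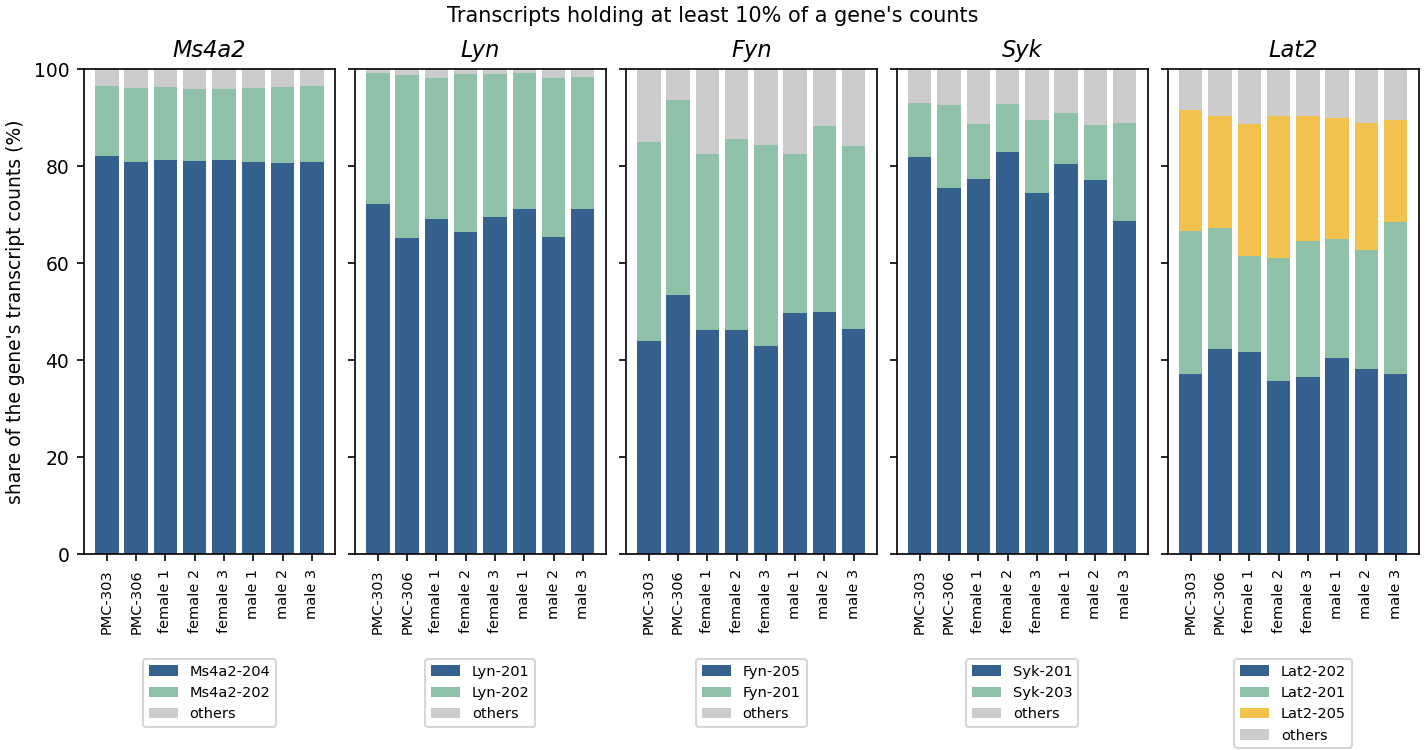
Share of each gene's transcript counts (percent) held by transcripts with at least 10% on average, for Ms4a2, Lyn, Fyn, Syk and Lat2 in each of the 8 libraries; grey is the sum of other transcripts. The leading transcript is the same in all 8 libraries for each of the 5 genes, and its share shifted between groups by at most 1.91 percentage points over the 5 genes.

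In the same fit 6 lists of other genes of the pathway were read, 104 genes in all and 86 of them tested. Of these, 14 were called higher and 18 lower in the lines, together 37.2%, beside 33.9% of all genes. Of 6 other Src, Syk and Tec family kinases tested, Txk was called higher (1.90-fold, adjusted p = 0.00439) and Tec lower (1.67-fold, 0.0115). Txk was at 85.9 and 76.4 CPM in PMC-303 and PMC-306, against 35.1 to 57.4 CPM in the primary cultures. Csk, which restrains Src kinases, was at 274 and 216 CPM, against 194 to 230 CPM (limma adjusted p = 0.306).

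Of 27 adaptors and exchange factors tested, 5 were called higher and 7 lower, with a median log2 difference of -0.27. The exchange factor Rasgrp1, which loads Ras with GTP, was at 56.2 and 62.2 CPM in PMC-303 and PMC-306, against 8.52 to 19.9 CPM in the primary cultures (4.52-fold, limma adjusted p = 0.00100). The adaptor Skap1 rose 3.90-fold (adjusted p = 0.000497), while its relative Skap2 was 2.08-fold lower (adjusted p = 0.000136). Pag1, a membrane adaptor that brings Csk to Src kinases, was 2.24-fold higher (adjusted p = 0.0101). Lower were also Sh3bp2 (1.56-fold), Fyb (1.35-fold) and Lcp2, the SLP-76 adaptor that binds the LAT complex (1.28-fold, limma adjusted p = 0.0232). Grb2 (log2 -0.36, adjusted p = 0.0514) and Vav1 (log2 -0.27, adjusted p = 0.0945) were not called.

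Of 19 genes for phosphoinositide 3-kinases, phosphoinositide phosphatases and phospholipases C gamma, 3 were called higher and 4 lower. Pik3r6, a regulatory subunit, was 2.40-fold higher (limma adjusted p = 0.0197), Pik3r2 2.39-fold (0.0165) and the catalytic subunit Pik3cd 1.65-fold (0.0362). Among those called lower were the regulatory subunits Pik3r3 (2.17-fold, adjusted p = 0.00276) and Pik3r1 (1.51-fold, 0.00790) and the phosphatase Inpp4b (1.29-fold, 0.0313). The enzymes nearest to LAT, Plcg1 (log2 -0.24, adjusted p = 0.496) and Plcg2 (log2 -0.08, adjusted p = 0.383), and the SHIP-1 gene Inpp5d (log2 -0.35, adjusted p = 0.0868) were not called. Plcg1 was at 196 CPM in PMC-303, below the primary range of 277 to 396 CPM, and at 419 CPM in PMC-306, above it.

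Of 15 tyrosine phosphatases and ubiquitin ligases tested, 2 were called higher and 3 lower. Ptpn22 (3.83-fold, limma adjusted p = 0.00759, at 7.08 and 6.73 CPM in the lines) and Ptpn6, which encodes the inhibitory phosphatase SHP-1 (1.47-fold, 0.0149), were higher. Ubash3a (4.35-fold, adjusted p = 0.0154), the ubiquitin ligase gene Cbl (1.45-fold, 0.0215) and Ptprj (1.44-fold, 0.00935) were lower. Of 13 protein kinases C and small GTPases, Prkcq (3.13-fold, adjusted p = 0.0229) and Nras (1.30-fold, 0.00898) were called higher. Prkd2 (1.93-fold, adjusted p = 0.0181), Prkcb (1.29-fold, 0.0358) and Prkca (1.27-fold, 0.0210) were called lower. Of 6 other Fc receptor and IgE-binding genes tested, Fcgr3 alone was called. This receptor pairs with the γ chain and was at 235 and 231 CPM in PMC-303 and PMC-306, against 133 to 162 CPM in the primary cultures (1.56-fold higher, limma adjusted p = 0.000886). Fcgr2b, the inhibitory IgG receptor, was at 25.4 and 52.8 CPM, one line below and the other above the primary range of 35.2 to 49.3 CPM (adjusted p = 0.595).

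Of the 26 called pathway genes named here, Txk, Rasgrp1, Skap1, Skap2, Pik3r3, Ptpn22 and Fcgr3 kept their call in all 18 alternative analyses, and Nras in the 8 that left out 1 library. Without PMC-306 the call was lost for Tec, Pag1, Fyb, Pik3r1, Ptpn6, Ptprj, Cbl, Ubash3a and Pik3cd (adjusted p from 0.0631 for Ptprj to 0.317 for Pik3cd), and without PMC-303 for Sh3bp2, Prkcq, Lcp2 and Inpp4b (from 0.0884 for Sh3bp2 to 0.297 for Inpp4b). Pik3r2, Pik3r6, Prkca, Prkcb and Prkd2 lost it without either line (from 0.0512 for Prkca to 0.135 for Prkcb, both without PMC-303). The log2 difference of Pik3cd was 0.26 without PMC-306, whereas that of Pik3r2 was 1.30 without PMC-303 and 1.22 without PMC-306, and that of Prkcb was -0.37 without either. Among the primary cultures, leaving out female culture 1 ended the call of Lcp2 (0.0517), leaving out female culture 2 or 3 or male culture 2 or 3 that of Pik3cd (0.0558 to 0.0667), and leaving out female culture 1 or 3 or male culture 1 or 2 those of Inpp4b and Prkcb (0.0529 to 0.0734). In the other direction, Grb2 passed the threshold without male culture 2 (limma adjusted p = 0.0430) and Vav1 without female culture 2 (0.0308). Without PMC-306 the log2 difference was -0.61 for Inpp5d, -0.79 for Plcg1 and -0.71 for Fcgr2b, and without PMC-303 it was -0.59 for Grb2. The signs of the 26 were the same in all of these.

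**Figure D5:**
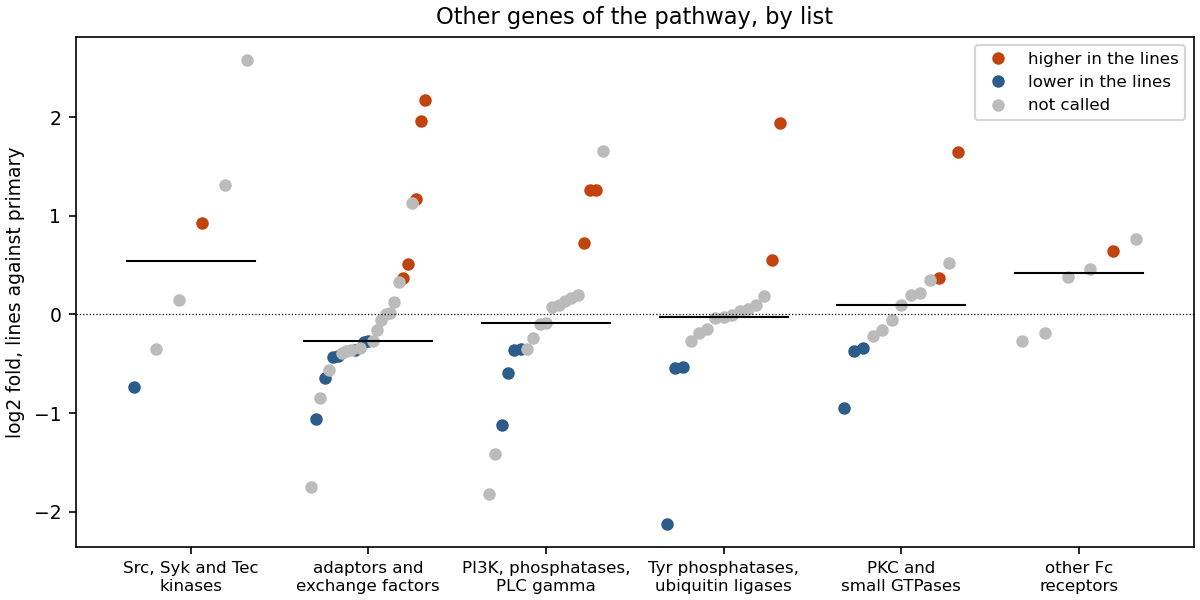
Log2 fold of both lines against the 6 primary cultures for the 86 tested pathway genes, 1 point a gene, in 6 lists; black lines are medians. Called genes lie on both sides of 0 in 5 of the 6 lists, and the highest called point is Rasgrp1.

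The genes whose levels followed those of the receptor chains most closely over the 8 libraries were found among 8750 genes averaging 10 CPM or more, by Pearson's r of log2(CPM + 0.1), given as a description because the libraries share the contrast between lines and primary cultures. For Fcer1a these were Cd244a (r = 0.993), Ltbr (0.991) and Mtf1 (0.989). Cd244a was at 142 CPM in PMC-303, 79.8 CPM in PMC-306 and 204 to 249 CPM in the primary cultures. For Ms4a2 they were Ptdss1 (0.991), Stx2 (0.982) and Inpp5a (0.981). For Fcer1g the closest were Adipor2 (0.959), Antxr2 (0.934) and Tmem251 (0.923).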

How the data were processed

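RNA of 8 cultures was sequenced, and samples were grouped by their titles, with 0 columns left without a sample. Per the labels and the study's methods, the authors made stranded total RNA libraries, trimmed reads with Trim Galore 0.6.7, aligned them to GRCm39 with STAR 2.7.9a and quantified them with Salmon 1.5.2. For each gene and transcript the authors deposited an estimated count, not normalized, and TPM values. A spreadsheet had rewritten 3.37% of gene count cells, 3.22% of transcript count cells and 20.8% of TPM cells. These were restored, after which 99.7% of gene counts matched their summed transcripts to 0.2 counts. In TPM cells that could be read in more than 1 way, the point was placed nearest to the level expected from the counts. In 5303 of them this differed from the default, the smallest reading of at least 1 TPM. The restored TPM values are therefore not independent of the counts.

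Counts were scaled with TMM. Genes reaching about 10 counts in at least 2 libraries (3 for the sexes) and 15 in total were fitted with limma 3.58.1 in R 4.3.3 on log2(CPM + 0.1), its prior variance following mean expression, both lines taken as replicates against 6 primary cultures. Because the tables hold rewritten cells, no count model was used. Single lines were compared with the range of the primary libraries, and transcript shares and ratios with exact permutation tests (Python 3.11.15, scipy 1.17.1). A fit without 1 line rests on 1 library of the other line, which is assumed to vary like the primary cultures. Gene models and sequences came from GENCODE M39 on GRCm39. The fit was run on simulated data with planted differences larger than those called among the 10 genes, so that run is no check of calls of this size.

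The 10 genes, the pathway lists and the marker lists were chosen with earlier results of these data known. From each pathway list the text names up to 3 genes called higher and 3 called lower with the largest differences and at least 5 CPM, and the proximal signalling genes Plcg1, Plcg2, Grb2, Lcp2, Vav1, Inpp5d, Ptpn6, Cbl, Csk and Fcgr2b, with the 3 genes most like each receptor chain. Gata2, Rps20 and single cell type markers were named after their values were seen. All 15 pairs of primary libraries differed beyond sampling noise (chi-square per degree of freedom of at least 20.6). Nothing in the labels says that equal replicate numbers share a litter or day, and p-values measure the spread between these cultures only. The sequence of 1 coding stretch is not reported here.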

Additional observations from a re-analysis of the deposited data

Results flagged for a closer look

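Lat in female culture 2 stood apart from the other primary cultures, at 338 CPM where the next highest was 262 CPM. Among 19 measures searched in the 6 primary cultures this was the only one with a culture so far from the rest, and chance, at about 1 in 20, gives 0.95 of 19. The 2 lines lay outside the primary range on opposite sides for the ratio of Lat2 to Lat, 2.03 in PMC-303 and 3.95 in PMC-306, and for the share of Lyn-201, 72.3% in PMC-303 and 65.1% in PMC-306. With 1 library for each line these differences were not tested.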

How the results depend on the processing

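The depth of at least 15918758 counts leaves counting error small for the 10 genes, and the limit is the number of cultures, with 1 library for each line. The number of all genes called, 4920, fell to 2146 against the female and 3031 against the male primary cultures alone, with fewer samples. The number of receptor and signalling genes called, 4, was 2 with TPM (Fcer1a and Syk) and 1 (Syk) against the female cultures alone, and 3 or 4 with 1 library left out at a time, although the genes differed, as given above. The number of called pathway genes, 32, was 16 with TPM and 15 and 13 against the female and male cultures alone. No ratio or transcript share passed the threshold with length-scaled levels or without 1 primary culture, but the adjusted p can pass only where most of them reach the smallest p, and with a line left out it cannot pass, so this says nothing of stability. Signs changed only for differences that were not called. With library totals unadjusted the log2 difference was 0.036 for Lyn, 0.091 for Btk and 0.026 for Plcg2, and with TPM it was 0.041, 0.060 and 0.058. Btk was at 0.027 against the male cultures alone. With 1 library left out at a time, lowest and highest log2 differences were -0.98 and 0.035 for Fyn, -0.070 and 0.040 for Btk, -0.014 and 0.32 for Csk, -0.79 and 0.31 for Plcg1, -0.17 and 0.012 for Plcg2, -0.71 and 0.35 for Fcgr2b, -0.22 and 0.95 for the ratio of Lyn to Fyn and -0.56 and 0.40 for the ratio of Lat2 to Lat. The same ranges for transcript shares were -3.74 and 3.42 percentage points for Lyn-201 (0.863 with length-scaled levels), -0.19 and 1.05 for Ms4a2-204, -1.30 and 5.12 for Syk-201, -3.01 and 6.46 for Fyn-205 and -1.09 and 3.93 for Lat2-202, each end without PMC-303 or without PMC-306. The cause of these changes was not tested. For the sexes, the fit with the replicate number as a block (replicate block) called 5 genes in place of 6 and none of the 10 genes. Same-numbered cultures correlated at -0.20, 0.31 and 0.45 and others from -0.62 to 0.44; as 1 of 3 pairs was negative, the numbers were not taken to pair the samples.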
